A study of Mus musculus with 6 samples.

Results

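Neuropeptide transcripts that sympathetic neurons can switch on were measured in the stellate ganglia of mice with a narrowed aorta. The set was fixed by name: the peptide genes Gal, Vip, Adcyap1, Tac1, Penk, Nts, Calca and Calcb and the receptor genes Adcyap1r1 and Galr1. Probe sets were taken where the platform annotation gave exactly 1 of these 10 symbols. This yielded 15 of the 45101 probe sets on the array and covered 9 of the 10 genes. Calca had no probe set under this rule and was not analysed here. A probe set is a group of short probes for 1 transcript, and its value here is a log2 intensity. A set whose mean over all 6 arrays was under 4 is called dim, because such values lie near the background of the array. By this floor 4 member probe sets, 1 each for Gal, Vip, Adcyap1r1 and Calcb, were above background and 11 were dim.

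The stellate ganglia hold the sympathetic neurons that supply most nerve fibres of the heart. All animals were male C57/Bl6 mice. They had undergone either transverse aortic constriction (TAC), which narrows the aortic arch and loads the left ventricle, or a sham operation, and tissue was taken 8 weeks later. RNA from the left and right ganglion of an animal went onto a single array, giving 3 sham and 3 TAC arrays, each with a letter A, B or C. Wherever 3 values are listed for a group they are in the order A, B, C. The ganglia are whole tissue, so a change in the number of cells of a type and a change in RNA per cell cannot be told apart.

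Galanin, vasoactive intestinal peptide (VIP) and PACAP, the product of Adcyap1, are small secreted peptides cut from larger precursors and released from dense-core vesicles. In sympathetic neurons they are known as inducible: their transcripts rise after the axon is cut, in part through cytokines that signal by the gp130 receptor subunit, while the noradrenergic programme recedes. VIP also belongs to the small cholinergic class of sympathetic neurons, and VIP and PACAP act through related receptors that raise cyclic AMP. Galanin acts on G-protein-coupled receptors, among them the one encoded by Galr1, and in the heart can restrain release of acetylcholine from vagal endings.

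Because Gal and Vip both stood higher in TAC in the data that follow, the 250 bases before their RefSeq start sites are shown first, read 5′ to 3′ on the gene's strand. RefSeq promoter windows of assembly GRCm38.p6 were found for 7 of the 10 genes. Capitals mark the sequence TGACG, the core of the cyclic AMP response element. The Gal window lies at chr19:3414545-3414794 on the minus strand and the Vip window at chr10:5638968-5639217 on the plus strand.
Gal: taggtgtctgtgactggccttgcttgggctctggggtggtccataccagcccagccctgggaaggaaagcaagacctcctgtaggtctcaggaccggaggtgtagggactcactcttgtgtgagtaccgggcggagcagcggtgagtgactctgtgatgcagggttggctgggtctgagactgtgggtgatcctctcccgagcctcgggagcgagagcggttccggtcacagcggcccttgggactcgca
Vip: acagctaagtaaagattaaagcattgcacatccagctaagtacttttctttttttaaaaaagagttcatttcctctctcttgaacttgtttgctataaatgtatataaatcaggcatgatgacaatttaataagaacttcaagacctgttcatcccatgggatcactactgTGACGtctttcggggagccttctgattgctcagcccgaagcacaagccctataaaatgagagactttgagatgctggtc

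A set of 4 motifs was searched on both strands in these windows: the palindromic element TGACGTCA, its core TGACG (which overlaps it), the AP-1 site TGANTCA and the STAT site TTCNNNGAA. The Gal window held none of these 4, which says only that these letters are not in it. The Vip window held the core once, 79 bases before the start, and no full element. Among 32851 RefSeq windows of the same length, 17.8% held the core, 1.55% the full element, 6.75% an AP-1 site and 7.02% a STAT site. The core was also present before Adcyap1 (91 bases before the more upstream of its listed starts), Calca (65 bases), Nts (166 bases) and Tac1 (197 and 43 bases), and absent before Adcyap1r1. Of these windows that of Nts also held an AP-1 site, and none held a STAT site. To compare the cores, 30 bases are given for each gene, read on the strand that carries TGACG. They lie at chr10:5639129-5639158 (Vip), chr17:93198916-93198945 (Adcyap1), chr7:114636403-114636432 (Calca), chr6:7554849-7554878 and chr6:7555003-7555032 (Tac1) and chr10:102490570-102490599 (Nts). The genes lie on the plus strand for Vip, Adcyap1 and Tac1 and on the minus strand for Calca and Nts, and the Tac1 and Nts cores are on the strand opposite the gene.
Vip core: atcactactgTGACGtctttcggggagcct
Adcyap1 core: actaggatgcTGACGtcttttactgatacc
Calca core: agcacagaggTGACGcaatctgtctggggc
Tac1 distal core: gtgttcgaaaTGACGcaattttagggaagt
Tac1 proximal core: atctcaggcgTGACGagcctgtagagccac
Nts core: tgatggaaagTGACGatcttccctaattgc
Over the 8 positions of TGACGTCA, the Vip and Adcyap1 sites shared 7 bases with it, the Calca and distal Tac1 sites 6, and the proximal Tac1 and Nts sites 5. A run of TGACGTC, the part that Vip and Adcyap1 have in common with the full element, occurred in 2.78% of windows. A match is a description of the letters and not evidence of binding.

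Before the members are described, some facts of the arrays bear on them. All pairs of arrays correlated at 0.980 to 0.994 over the 17550 probe sets above the floor. TAC B was the least similar to the rest, with a mean correlation of 0.984. The differences of Gal, Adcyap1r1 and Adcyap1 are therefore also given without it, as are those of named list genes that lean on it. For Adcyap1 and the list genes this is a difference of means with no test. Among list genes this removal was chosen after the values were seen. Sham C and TAC B carried more fat transcripts than the others: the summed linear intensity of the 4 detected of 7 brown fat markers was 1320 and 725, against 400 to 469 on the other 4 arrays. Skeletal muscle transcripts varied too: the 4 detected of 9 markers summed to 605, 48 and 1085 (sham) and 222, 66 and 65 (TAC). Markers of sympathetic neurons fitted the label of the tissue, with 16 of 16 genes that had a probe set above the floor, Th and Dbh among them. Their summed intensity ranged from 130020 to 141764 in sham and from 146200 to 154207 in TAC. This linear sum is carried by its brightest genes. Npy, Th and Snap25, described next, are among them. So are Dbh, Slc6a2, Uchl1 and Stmn2, at log2 differences of 0.03, -0.10, -0.04 and -0.07 on their brightest sets, with overlapping groups. Less bright sets of Slc6a2 at -0.37 and of Stmn2 at 0.13 had groups apart, and the other Slc6a2 and Dbh sets overlapped. On the brightest sets of the 16, 5 had every TAC array above every sham array and 1 every TAC array below, where the shares of all probe sets were 9.02% and 8.85%, and the same 5 had an unadjusted limma p under 0.05, while limma called 0. They were Npy, the neuropeptide Y gene, at a log2 difference of 0.77, the vesicular monoamine transporter gene Slc18a2 at 0.29, Th, the gene of the rate-limiting enzyme of noradrenaline synthesis, at 0.24, and Snap25 and Chrna3 at 0.23 each. The other sets of Chrna3 stood at -0.18 and -0.05, with overlapping groups. A less bright Prph set lay apart at -0.44, while the brightest Prph set, at 0.01, overlapped. Insm1 separated downward at -0.94 (-0.46 without TAC B). The median of the 16 was 0.02. The part of these differences in the results below was not tested.

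Galanin was the member with the largest difference between the groups. Its probe set, 1460668_at, read 12.20, 12.64 and 12.42 (sham) and 13.09, 13.97 and 13.34 (TAC). All 3 TAC arrays lay above all 3 sham arrays, with a gap of 0.45 between the highest sham and the lowest TAC value. The group means were 12.42 ± 0.22 in sham and 13.47 ± 0.45 in TAC (SD, n = 3), a log2 difference of 1.05 (SE 0.24, 95% interval 0.47 to 1.63), or 2.07-fold. Against the sham mean the single TAC arrays were 1.59-fold higher on TAC A, 2.93-fold on TAC B and 1.90-fold on TAC C. The difference was larger than that of 99.8% of the probe sets above the floor. In limma's fit over all of them its unadjusted p was 0.00403 and its adjusted p 0.512, so it did not pass the threshold of 0.05. The exact two-sided permutation test gave p = 0.1, the smallest value that 3 arrays against 3 allow. Without TAC B, the array with the highest Gal value, the difference was 0.80 (limma unadjusted p = 0.00366, adjusted p = 0.660). It was 0.80 as well without sham C and TAC B together.

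Vip, the precursor gene of VIP, was the other member that separated the groups, on probe set 1428664_at. On the sham arrays it read 11.58, 11.87 and 11.72, and on the TAC arrays 12.60, 12.05 and 12.24. Again every TAC array exceeded every sham array, but the gap was only 0.18, between sham B and TAC B. The means were 11.72 ± 0.15 in sham and 12.30 ± 0.28 in TAC (SD, n = 3), a log2 difference of 0.57 (SE 0.16, 95% interval 0.19 to 0.96), or 1.49-fold. Limma gave an unadjusted p of 0.0101 and an adjusted p of 0.516, and the exact permutation test again gave its smallest p of 0.1. Without TAC A, where Vip was highest, the difference was 0.42 (limma unadjusted p = 0.0190, adjusted p = 0.436).

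The order of the TAC animals differed between both peptides. Galanin was highest on TAC B and lowest on TAC A, whereas Vip was highest on TAC A and lowest on TAC B. On the sham arrays the order was the same for both, with B highest and A lowest. Mean-centred log2 profiles of Gal and Vip over the 6 arrays differed by a root-mean-square of 0.48.

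**Figure D1:**
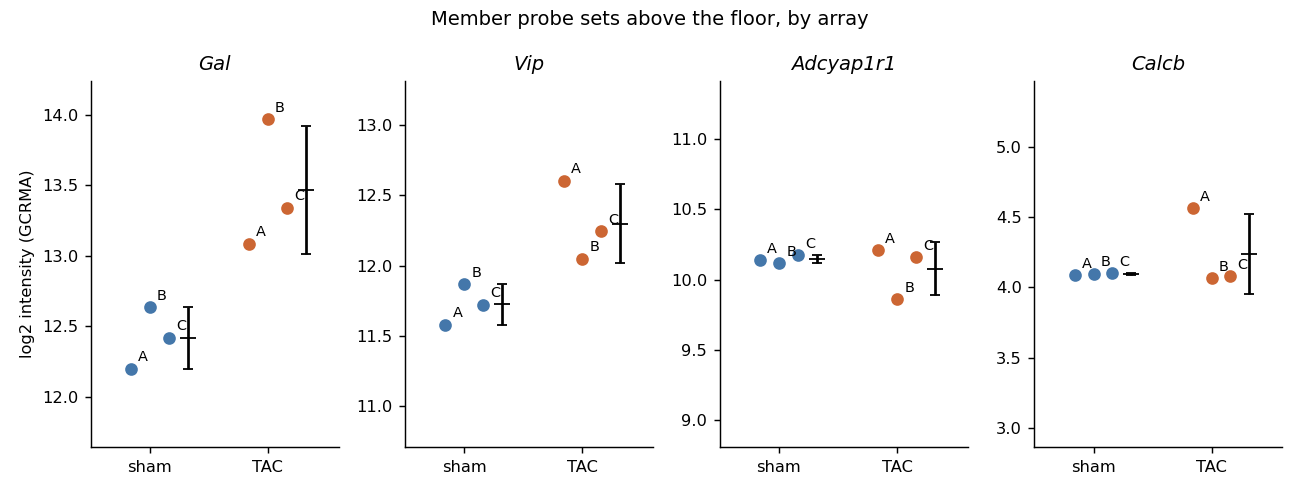
Log2 intensity (vertical axis, a window of equal height in each panel) of Gal, Vip, Adcyap1r1 and Calcb on the sham (blue) and TAC (orange) arrays; points are single arrays with their letters, and the bar beside them is the mean ± SD, n = 3. The 3 TAC points of Gal (13.09 to 13.97) and of Vip (12.05 to 12.60) all lie above the sham points, while the groups overlap for Adcyap1r1 and Calcb.

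The gene for the PACAP receptor, Adcyap1r1, was well above background and showed no separation. Its detected probe set, 1429022_at, read 10.14, 10.12 and 10.17 (sham) and 10.21, 9.86 and 10.16 (TAC). The TAC values spread around the narrow sham range on either side, and TAC B alone was clearly lower. The log2 difference was -0.07 (SE 0.11), with a 95% interval of -0.33 to 0.20 (limma adjusted p = 0.847). Without TAC B it was 0.04 (limma adjusted p = 0.890), so its sign rested on that array. The other probe sets of the gene were dim and stood 0.26 and 0.08 higher in the TAC mean, with overlapping groups.

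Calcb, which encodes the beta form of calcitonin gene-related peptide, a vasodilator peptide of sensory neurons, lay just above the floor. Its set 1422639_at read 4.09, 4.10 and 4.10 (sham) and 4.57, 4.07 and 4.08 (TAC). A single TAC animal was higher and the other TAC arrays were slightly below the sham arrays. The log2 difference was 0.14 (SE 0.15, 95% interval -0.21 to 0.49, limma adjusted p = 0.749), and without TAC A it was -0.02 (limma adjusted p = 0.923). Calcb was the member nearest the floor from above, with a mean of 4.17 over all arrays, and the Adcyap1r1 set 1439042_at the nearest from below, at 3.91.

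Of the 4 member probe sets above the floor, 2 had every TAC array above every sham array and 0 had every TAC array below. Over all 17550 probe sets these shares were 9.02% and 8.85%. The same 2 members, Gal and Vip, had an unadjusted limma p under 0.05 and a higher TAC mean, and 0 had a lower one, where the background was 6.03% higher and 3.05% lower. Limma called 0% of all probe sets at an adjusted p under 0.05, none of the members among them. At an unadjusted p under 0.05 there were 1594 probe sets. The median log2 difference was 0.36 over the 4 members and 0.03 over all probe sets above the floor. With 4 probe sets these shares describe the members and test nothing.

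PACAP itself was not detected by either of its probe sets. The Adcyap1 set 1441778_at read 3.32, 3.27 and 3.26 (sham) and 3.40, 3.89 and 3.20 (TAC). The set 1423427_at read 3.14, 3.01 and 3.01 (sham) and 2.97, 3.54 and 2.97 (TAC). Both sets were highest on TAC B, the array on which Gal was also highest, and on both the groups overlapped. Their log2 differences were 0.21 and 0.11, and without TAC B they were 0.01 and -0.08. Atf3, a transcription factor gene known to be switched on in neurons by axon injury, was dim on average too: it measured 4.19 on TAC B, against 2.66 to 2.75 on the other 5 arrays. Genes of other lists below were also highest on TAC B. Osmr read 4.41 there, against 2.91 to 2.99 elsewhere, and Nr4a3 7.31, against 4.18 to 5.52. The axon injury genes Gap43 and Klf7 were not highest on TAC B. Whether the Atf3 and Gal values of this array are related was not tested.

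The remaining peptide genes stayed at background. Penk, the precursor of the enkephalins, which are opioid peptides, read 3.57, 3.05 and 3.52 (sham) and 3.67, 3.60 and 3.56 (TAC). Its groups overlapped, and the difference of 0.23 became 0.06 without sham B, the lowest array. Tac1, the precursor of substance P and neurokinin A, lay between 2.82 and 3.07 on every array in both of its sets, with log2 differences of -0.03 and -0.14. Nts, which encodes neurotensin, measured 2.36, 2.43 and 2.39 in sham and 2.34 on each TAC array. The galanin receptor gene Galr1 had 3 sets with means over all arrays of 2.78, 2.29 and 1.90, and differences of -0.09, -0.04 and -0.03.

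Some of these dim sets separated the groups downward, and this has to be read against the dim sets as a whole. Of the 11 dim members, 5 had every TAC array below every sham array: all 3 sets of Galr1, the single set of Nts and the set 1431883_at of Tac1. None had every TAC array above. Over all 27487 dim probe sets the shares were 71.6% below and 0.415% above. The members thus separated downward in a smaller share than dim sets at large. The median difference was -0.03 over the dim members and -0.04 over all dim sets, 87.0% of which had a lower TAC mean. On the linear scale the array medians ran from 7.97 to 8.45 in sham and from 7.82 to 7.85 in TAC. No lower expression of Galr1, Nts or Tac1 can be read from these values.

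**Figure D2:**
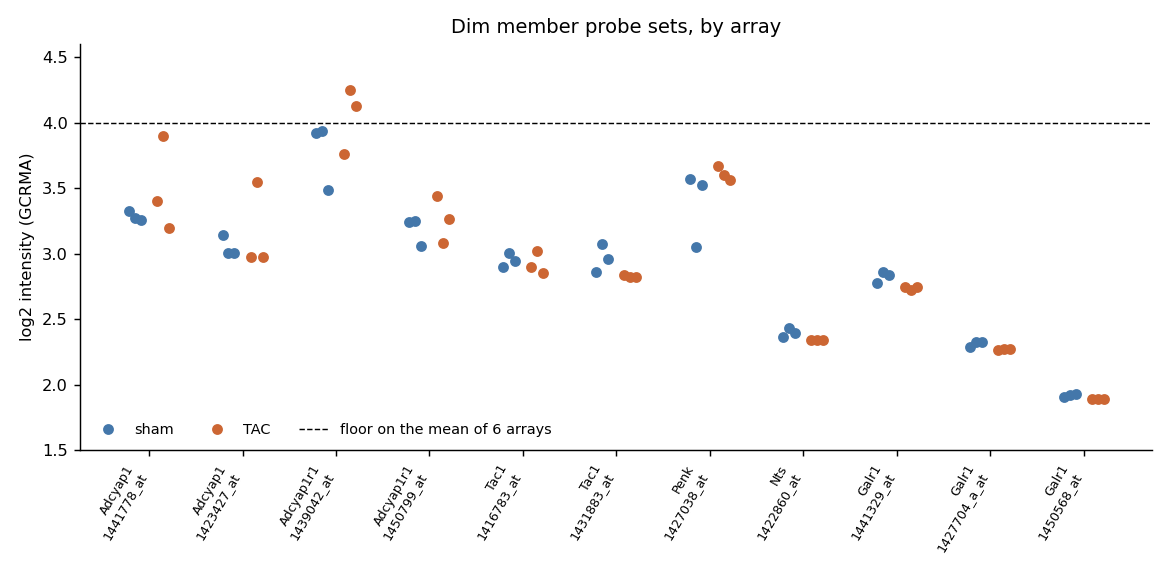
Log2 intensity (vertical axis) of the 11 dim member probe sets on sham (blue) and TAC (orange) arrays; the dashed line is the floor of 4 on the mean of the 6 arrays. Both Adcyap1 sets have a single high TAC point, which is TAC B (3.89 and 3.54), and the Nts and Galr1 sets show small downward shifts of 0.03 to 0.09.

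**Figure D3:**
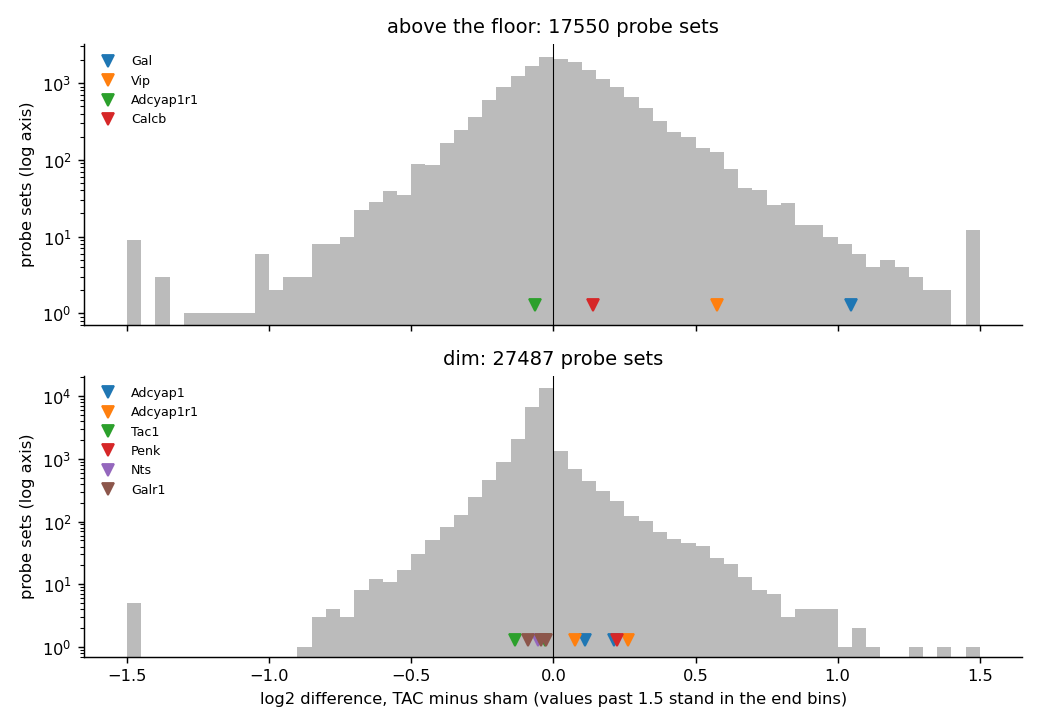
Histograms of the log2 difference, TAC minus sham (horizontal axis), over the 17550 probe sets above the floor (upper panel) and the 27487 dim ones (lower panel), with counts on a log axis and members as triangles. Gal at 1.05 and Vip at 0.57 lie in the upper tail of the upper panel, while the dim members of the lower panel lie between -0.14 and 0.26, where most dim sets are just below 0.

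Receptors for these peptides were sparsely detected. Of 19 receptor and accessory genes besides Adcyap1r1 and Galr1, 18 had a probe set, taken as the brightest set of each gene, and 6 of these were above the floor. Galr2, Vipr1, Vipr2, Tacr1, Tacr2, Tacr3, Oprm1, Oprd1, Ntsr1, Ntsr2, Calcr and Ramp3 were dim. Galr2, a further galanin receptor, had means of 2.84 in sham and 2.83 in TAC. The detected genes included the kappa opioid receptor gene Oprk1 at a log2 difference of 0.24 (-0.01 without TAC B). Sort1, the neurotensin-binding sorting receptor gene, stood at 0.10. The others were the calcitonin gene-related peptide receptor parts Calcrl at 0.26, Ramp1 at -0.10 and Crcp at 0.24, and the accessory gene Ramp2 at 0.33. Without TAC B, Ramp2 stood at 0.02 and Crcp at 0.04. Limma called 0 of the 6, and 0 had an unadjusted p under 0.05. Only Ramp1 separated the groups, with sham values of 9.88, 9.87 and 9.86 against TAC values of 9.72, 9.77 and 9.82. The Ramp1 difference did not pass (SE 0.07, limma adjusted p = 0.662). Of all probe sets above the floor 8.85% separated downward in this way.

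Neuropeptide Y, the constitutive peptide of most sympathetic neurons, was kept among the sympathetic markers, and its transcript stood higher in TAC than in sham. Npy read 13.61, 13.83 and 13.87 (sham) and 14.38, 14.65 and 14.57 (TAC), with groups apart (limma unadjusted p = 0.000359, adjusted p = 0.512). Somatostatin, an inhibitory peptide, was in no list and is named after its values were seen. Sst read 3.56, 3.52 and 3.60 (sham) and 6.22, 6.07 and 7.05 (TAC), a difference of 2.89. Its sham values lay under the floor of 4, so the set was tested only because of its high TAC values. It had the smallest adjusted limma p of all tested probe sets, 0.141, which did not pass. Other precursors were mostly at background. Of 25 listed genes, among them Cck, Grp, Tac2, Pdyn, Pomc and Trh, 21 had a probe set and 1 was above the floor, the vasodilator peptide gene Adm. Its difference was 0.02 (SE 0.09), and a second, less bright set of Adm was at 0.32 (0.08 without TAC B), with overlapping groups on both. Among the dim ones Grp, the gastrin-releasing peptide gene, read 2.97, 3.03 and 3.10 (sham) and 3.87, 3.63 and 3.11 (TAC), with groups apart by a narrow margin. Ghrh, the gene of growth hormone-releasing hormone, read 6.95 on TAC B and 2.42 to 3.09 on the other 5 arrays.

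The gp130 pathway, a known inducer of galanin and VIP in injured sympathetic neurons, was followed in 19 genes. Of these 16 had a probe set and 8 were above the floor, with a median difference of 0.07. The cytokine genes Lif, Il6, Il11, Osm and Ctf1 were dim. Cntfr, the ligand-binding part of the receptor for ciliary neurotrophic factor, read 7.24, 7.29 and 6.95 (sham) and 7.33, 7.61 and 7.48 (TAC). Its difference was 0.31 (SE 0.12, limma unadjusted p = 0.0414, adjusted p = 0.546), and its groups overlapped after quantile normalization. The signal transducer gene Stat3 was 0.28 higher in TAC on its brighter set (unadjusted p = 0.0475), with overlapping groups, and 0.22 on the other set, with groups apart. Limma's adjusted p did not pass for either. Il6st, which encodes gp130, differed by -0.01 on its brightest set. Its other sets stood at 0.10 and 0.48, with groups apart on both, which overlapped after quantile normalization, and the latter was 0.11 without TAC B. Lifr differed by 0.04 and Jak1 by 0.01. The feedback inhibitor gene Socs3 stood at 0.26 (-0.03 without TAC B) and its second set at 0.55 (0.06 without TAC B), with overlapping groups. On the brightest sets of the 8 genes, 1 separated upward and 0 downward, 2 had an unadjusted p under 0.05 with a higher mean, and limma called 0. Over all probe sets above the floor 9.02% separated upward, 8.85% downward, and 6.03% had such a p with a higher mean.

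Genes of cyclic AMP responsive transcription showed differences of either sign. Of 16 listed genes 13 were above the floor, with a median difference of 0.05. Creb1, the factor that binds the cyclic AMP response element, read 9.12, 9.22 and 9.14 (sham) and 9.03, 8.82 and 8.87 (TAC). It was thus lower on every TAC array, by 0.25 (SE 0.09, limma unadjusted p = 0.0251, adjusted p = 0.542), and its second set was lower by 0.17. The orphan nuclear receptor gene Nr4a1 also separated downward, with a difference of -0.24 (SE 0.13, limma adjusted p = 0.583). Fos differed by -0.63 and Crem by 0.13, with a second Crem set at 0.68, and on all of these the groups overlapped. Without TAC B the Crem sets stood at -0.06 and 0.07. Limma called 0 of the 13, and 1 had an unadjusted p under 0.05, with a lower mean. On the brightest sets 2 separated downward and 0 upward. Over all probe sets above the floor these shares were 3.05%, 8.85% and 9.02%.

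Among axon injury genes 8 of 10 were above the floor, with a median difference of 0.01. The growth-cone protein gene Gap43 read 12.53, 12.58 and 12.50 (sham) and 12.48, 12.41 and 12.32 (TAC). Its small difference of -0.13 (SE 0.08) had a limma adjusted p of 0.604, and its groups overlapped after quantile normalization. The injury transcription factor gene Jun differed by -0.06, with overlapping groups. Smad1 and Klf6 each differed by 0.04 on the brightest set, with overlapping groups. Less bright sets of Smad1 stood at 0.19 and 0.31 and a dimmer Klf6 set at 0.78, with every TAC array above every sham array. After quantile normalization only the Smad1 set at 0.31 stayed apart. Other Klf6 sets overlapped, between -0.05 and 0.03. Limma called 0 of the 8, and 0 had an unadjusted p under 0.05. On the brightest sets 1 separated downward and 0 upward, against 8.85% and 9.02% of all probe sets above the floor.

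Markers of cells in which these peptides are also known were examined beside the results. Of the 6 markers of cholinergic sympathetic neurons, Chat, Slc18a3, Slc5a7 and Tlx3 were dim on average, with Chat at 2.35 in sham and 2.32 in TAC. The detected ones were Ret at -0.22 (-0.07 without TAC B) and Gfra2 at -0.40 (limma adjusted p = 0.546 for Gfra2, whose groups lay apart). Their summed intensity was 6535 to 7940 in sham and 4857 to 6704 in TAC. Of the dim ones, Slc18a3 differed by 0.21 with overlapping groups. Chat, Slc5a7 and Tlx3 had every TAC array below every sham array, as most dim sets did. Dim values cannot show whether these genes are absent from a small class of neurons. Of 14 sensory neuron markers 10 had a probe set and 2 were above the floor, Avil at -0.06 and Ntrk2 at -0.11 (0.06 without TAC B, and its other sets at -0.40 and 0.66, so they disagree), while Scn10a and Trpv1 were at background. Their summed intensity was 4583 to 4828 in sham and 4288 to 4847 in TAC. Chromaffin markers were all 5 detected, with summed intensities of 9095 to 9596 in sham and 10954 to 11600 in TAC. Chgb, Phox2a and Chga, with sham means of 12.14, 11.58 and 10.62, carry this linear sum. Slc18a1 and Pnmt, at 6.51 and 5.98, add little to it, and Phox2a is also in the sympathetic list. This list holds Chgb, a secretory granule gene that sympathetic neurons also express, at a difference of 0.46, and Slc18a1, the monoamine transporter gene typical of chromaffin cells, at 0.50. Both had every TAC array above every sham array and an unadjusted limma p under 0.05 (adjusted p = 0.512). Over all probe sets above the floor 9.02% separated upward and 6.03% had such a p with a higher mean. The adrenaline-forming enzyme gene Pnmt, also a chromaffin marker, differed by 0.02. Satellite glia markers summed to 28457 to 30852 in sham and to 28596, 22200 and 26678 on TAC A, B and C. Fabp7, the brightest, weighs most in this linear sum and read 13.76, 13.11 and 13.73 on these TAC arrays. S100b, Kcnj10 and Apoe were also lowest on TAC B, while Glul was highest there, at 11.58. On the brightest sets, Fabp7 alone of the 9 detected glial genes separated the groups, at -0.39 (-0.18 without TAC B), where 8.85% of all probe sets separated downward. Less bright sets of Gja1 lay apart in either direction, at 0.25 and -0.16, and another overlapped at 0.02. The part of these markers in the Gal and Vip results was not tested.

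Profiles most like those of Gal and Vip were sought among the 9951 other genes with a detected probe set. The measure was the root-mean-square difference between log2 profiles over the 6 arrays, each centred on its own mean. All arrays enter it, so the group difference itself is part of the likeness. The 5 nearest to Gal were Pcsk1 at 0.16, Omg at 0.17, Tm4sf4 at 0.19, Rbm11 at 0.19 and Sez6l at 0.19, against a median of 0.61 over all genes. Pcsk1 encodes a prohormone convertase that cuts peptide precursors, and it read 8.24, 8.44 and 8.17 (sham) and 8.82, 9.61 and 8.84 (TAC). Each of these 5 was highest on TAC B, as Gal was, and the groups of Rbm11 overlapped. The 5 nearest to Vip were Nat2 at 0.13, Smpd4 at 0.13, Cacng5 at 0.14, Slc18a1 at 0.15 and Tmem132c at 0.15, against a median of 0.37. Slc18a1, the chromaffin marker named above, read 6.48, 6.47 and 6.57 (sham) and 7.19, 6.97 and 6.87 (TAC). All 5 were highest on TAC A among the TAC arrays, and the groups of Smpd4 and Tmem132c overlapped. No gene was in both sets of 5.

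**Figure D4:**
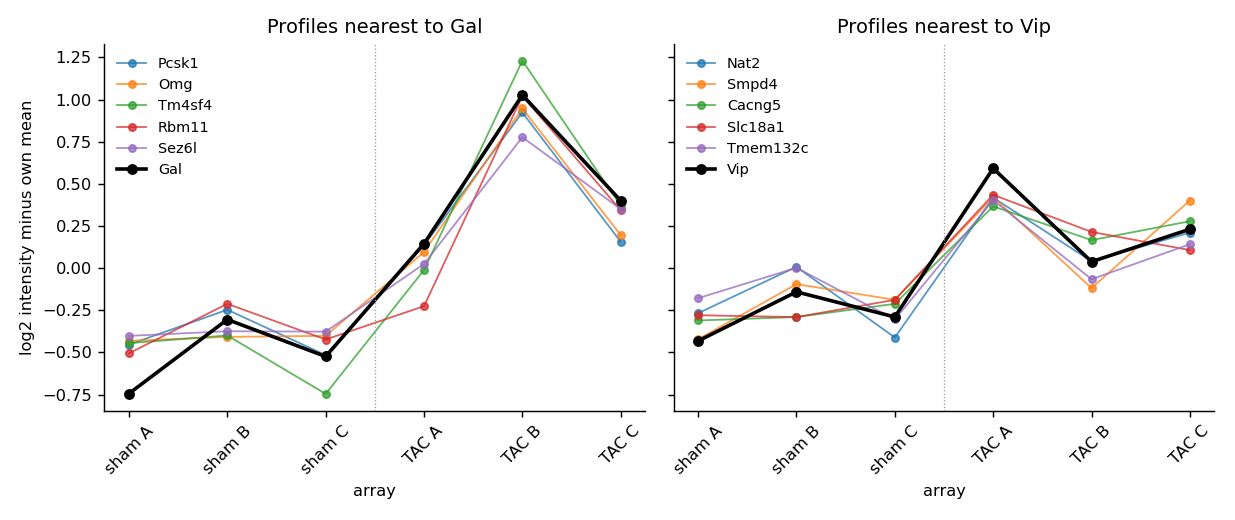
Log2 intensity minus the gene's own mean (vertical axis) on each array (horizontal axis) for Gal and its 5 nearest profiles (left) and for Vip and its 5 nearest (right); the dotted line divides sham from TAC arrays. The Gal group peaks on TAC B and the Vip group on TAC A.

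**Figure D5:**
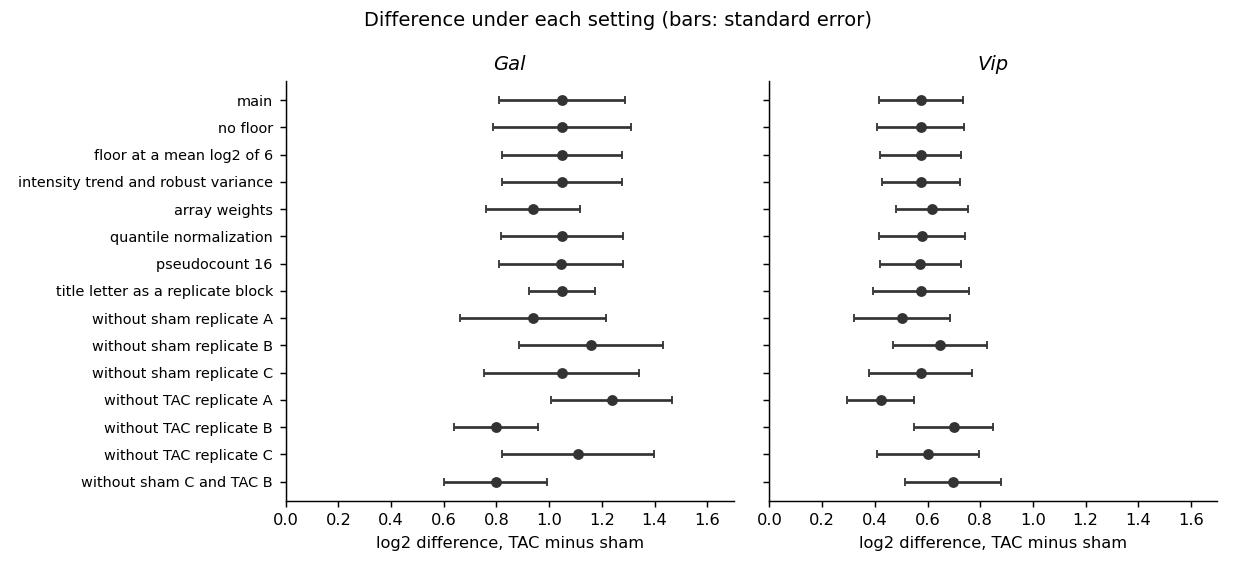
Log2 difference, TAC minus sham (horizontal axis), of Gal and Vip under the settings of the analysis as reported (main) and each alternative; points are estimates and bars are limma's standard errors. Every estimate is above 0, from 0.80 to 1.24 for Gal and from 0.42 to 0.70 for Vip.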

How the data were processed

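Values came from the deposited series matrix, whose linear probe set intensities the authors computed by GCRMA (named in the submitters' processing notes). GCRMA corrects background by probe sequence, normalizes between arrays and summarises each probe set. The GCRMA version and options were not given in the sources used here. Precision is limited by the number of arrays.

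The intensities were log2-transformed with no pseudocount. Of 45101 probe sets, 64 controls and 27487 dim ones (mean log2 under 4) were left out, and 17550 were tested with limma 3.58.1 in R 4.3.3 (lmFit, eBayes, two-sided, Benjamini-Hochberg over all 17550, threshold 0.05). Each array was 1 animal, per the labels. The fit was tested on simulated data. Symbols came from GEO's platform annotation: 34958 probe sets had 1 symbol, 932 several and 9211 none. Of those with 1 symbol, 34754 matched RefSeq's GRCm38.p6 gene table. Promoter letters were read from RefSeq windows of that assembly.

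The members and lists were chosen with earlier results of these data known. Every member was named. From each pathway list the tested genes whose groups did not overlap on the brightest set were named, and the 5 nearest profiles for Gal and Vip; other list genes, markers and Sst were named after their values were seen. The run TGACGTC was counted after the windows had been seen. Protein sequences were not analysed here. Alternatives covered the floor, the variance model, array weights, quantile normalization, a pseudocount of 16, the title letter as a block and arrays left out.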

Additional observations from a re-analysis of the deposited data

How the results depend on the processing

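Gal and Vip kept a higher TAC mean and an unadjusted limma p under 0.05 in all 14 alternatives, and neither passed the adjusted threshold in any (limma adjusted p 0.238 to 0.824). With 1 array left out the Gal difference was 0.797 to 1.238 and that of Vip 0.422 to 0.699. The count of probe sets called was 0 under every alternative except without TAC B (1, Mir670hg) and without TAC C (1, Sst), so it ran from 0 to 1 with an array left out. Both of these sets read under the floor of 4 on every sham array and were tested only because of their high TAC values. The sign of Adcyap1r1 turned without TAC B (0.042, and -0.132 without TAC A, the ends of its range) and with both sham C and TAC B removed (0.057). The sign of Calcb turned without TAC A (-0.024, the other end being 0.225), and with the floor at 6 it was not tested. The cause was not tested. After quantile normalization the Galr1 set 1450568_at differed by -0.00063, from -0.027. Over the probe sets above the floor the title letters showed little sign of pairing: deviations from the group means correlated at 0.084 for A, -0.0031 for B and -0.166 for C. With the letter as a replicate block the differences of 1.05 for Gal and 0.574 for Vip were the same by construction, and the calls stayed at 0. The standard error of Gal went from 0.240 to 0.126 (limma unadjusted p = 0.000638). That of Vip went from 0.159 to 0.183 (limma unadjusted p = 0.0291). Both had a limma adjusted p of 0.602. Values near background limit what can be said of the 11 dim probe sets.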
